A study of Rattus norvegicus with 8 samples.

Results

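The unfolded protein response is the set of genes that a cell uses when proteins in the endoplasmic reticulum (ER) do not fold. The study's gene table held all 10 of the genes named here, chosen by symbol: Hspa5, Hsp90b1, Pdia4, Pdia6, Xbp1, Atf4, Ddit3, Creld2, Dnajb9 and Manf, of 37209 gene rows in all. RNA was taken 1 week after surgery from 4 vein grafts and, as controls, from 4 jugular veins. The animals were rats of the outbred Sprague Dawley strain. In the graft group a vein was set into the divided left common carotid artery over short cuffs, where blood flows at arterial pressure. The control was the jugular vein from the opposite side of the operated animals, which was not placed in an artery. No age, sex, genetic change or drug is given for either group, and nothing says whether animals were pooled. The design speaks of 4 pairs, but the label numbers do not tie a graft to the control of its animal, so libraries were compared as unpaired and p-values measure the spread between these libraries, which may be technical. The question put by the design is which transcripts differ between a vein in an artery and a vein left in place.

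Sensors in the ER membrane respond to unfolded protein. IRE1 splices the mRNA of Xbp1 into the form that codes for the active transcription factor, ATF6 is cut to release a transcription factor of its own, and PERK slows translation while favouring that of Atf4. XBP1 and ATF6 raise chaperones and folding enzymes of the ER, and ATF4 raises amino acid genes and Ddit3, which codes for the death-promoting factor CHOP. Matrix-secreting smooth muscle cells and fibroblasts of a vessel wall depend on this machinery for the folding of collagen and other secreted proteins. The counts are per gene, so spliced and unspliced Xbp1 cannot be told apart here, and neither can translation or cleavage of any of these proteins.

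Total counts ran from 10533451 to 16061189 in grafts and from 5981520 to 14267490 in controls, with control 4 the lowest. Levels are given in CPM, the counts scaled to library size. A gene with no counts could have up to 0.187 to 0.502 CPM, the worth of 3 counts by library, which covers counting error only. The rarest of the 10 genes in any library, Creld2 in control 4, had 35 counts. The extraction text of the labels names prefrontal cortex, but neuronal markers were near absent: Snap25 averaged 0.146 ± 0.113 CPM in grafts and 0.415 ± 0.299 CPM in controls (SD, n = 4 each), and Gad2 had no counts in any library. Of 14 brain markers 8 were too low to test. Smooth muscle markers summed to 2156 to 4306 CPM in grafts and to 15433 to 25518 CPM in controls, and all 12 of 12 fell. Macrophage markers summed to 3745 to 6974 CPM in grafts and to 380.5 to 554 CPM in controls, and all 14 of 14 rose. Of 10 fibroblast markers 4 rose and 3 fell, with sums of 19567 to 46627 CPM in grafts and 39936 to 78184 CPM in controls. Most of these sums came from Col1a1, 1 of those that fell, at 22636 ± 8164 CPM in grafts and 47323 ± 17287 CPM in controls (SD). Of 10 adipocyte markers 9 fell, with sums of 337 to 736 CPM in grafts, and their sum in controls 3 and 4 was 3007 and 3949 CPM against 834.5 and 1297 CPM in controls 1 and 2. Of 9 tested endothelial markers 5 fell, with sums of 1510 to 1853 CPM in grafts and 3239 to 4938 CPM in controls. These shifts in cell type markers accompany every comparison below, and their part in each result was not tested. In such whole-tissue RNA, fewer cells of a type and less RNA per cell cannot be told apart.

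The 10 genes did not move as 1 block. Grafts had more mRNA of the folding enzymes Pdia4 and Pdia6 and of Creld2, at 1.47, 1.62 and 1.54 times the control level, and less mRNA of the co-chaperone Dnajb9, at 0.536 times. The central chaperone Hspa5, its partner Hsp90b1, the secreted factor Manf and the transcription factors Xbp1, Atf4 and Ddit3 did not pass the test. That is 3 of 10 that rose and 1 of 10 that fell, against 21.0% of all 15464 tested genes that rose and 21.3% that fell, by edgeR's quasi-likelihood test with Benjamini-Hochberg adjustment over all genes, called at an adjusted p under 0.05. In either direction 4 of 10 were called, against 42.3% of all genes, so the share of called genes was near the background. The median log2 fold change of the 10 was 0.13, and that of all genes was 0.01. Graft and control libraries stood apart without overlap for Pdia6 and Creld2, higher in grafts, and for Dnajb9, lower in grafts, against a background of 20.8% and 19.8% of genes.

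**Figure D1:**
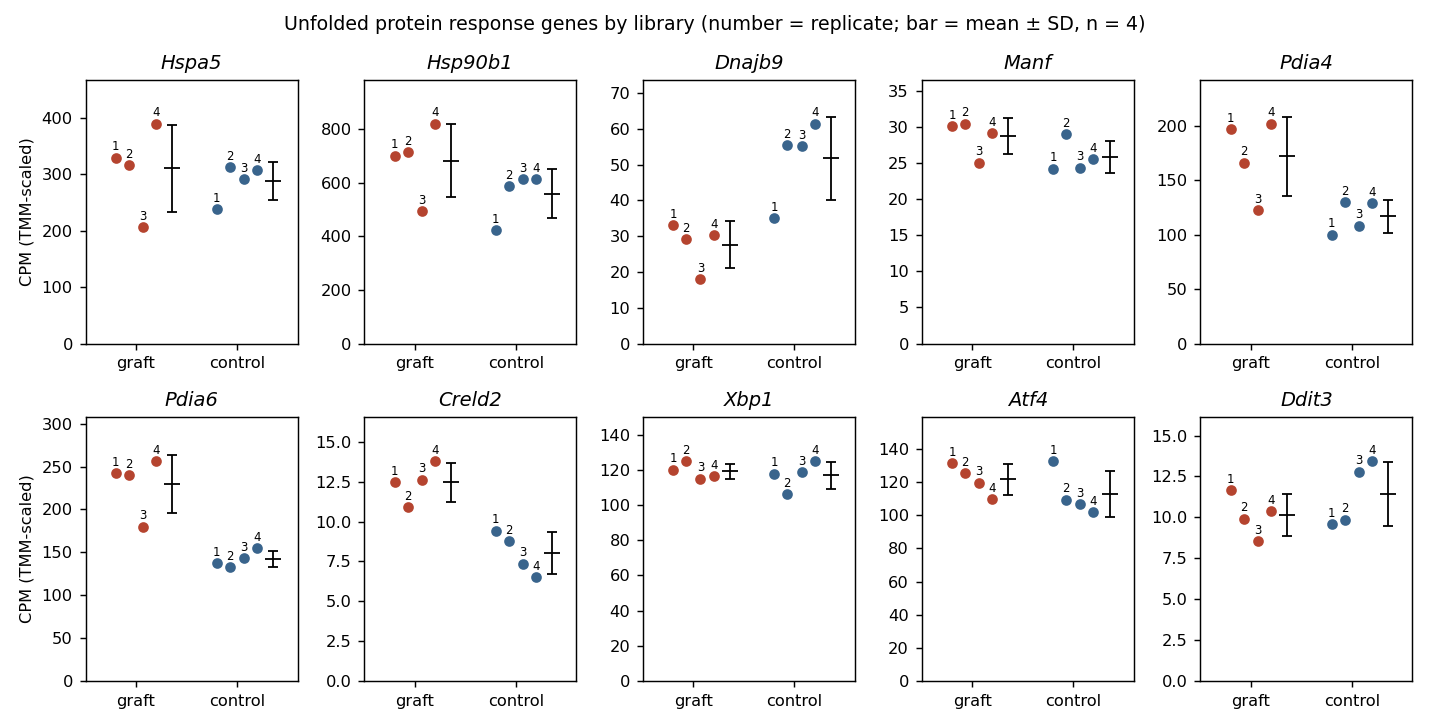
Level of each of the 10 genes in every library, in CPM on TMM-scaled library sizes (linear axes from 0), with grafts left and controls right (numbers are replicates). The black bars are mean ± SD (n = 4). Pdia6 and Creld2 are higher in all 4 grafts than in any control, Dnajb9 is lower in all 4 grafts, and Xbp1 lies between 106 and 125 CPM in all 8 libraries.

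Hspa5 codes for BiP, the ER member of the Hsp70 family, which binds unfolded chains and holds the sensors in check. It had 329.5, 316, 206 and 389.5 CPM in grafts 1 to 4 and 239, 313, 291 and 308 CPM in controls 1 to 4. The graft values lay on both sides of the controls, with graft 3 the lowest and graft 4 the highest of the 8 libraries. The log2 fold change was 0.11 (SE 0.19, adjusted p = 0.672 by edgeR), with a 95% interval for the fold from 0.802 to 1.45. Without graft 4 the log2 fold change was -0.01. Hsp90b1 codes for GRP94, the ER member of the Hsp90 family, which folds integrins and Toll-like receptors. It had 701, 715, 494 and 821 CPM in grafts and 423, 589, 614 and 614 CPM in controls. Grafts 1, 2 and 4 exceeded every control, while graft 3 exceeded only control 1. Its log2 fold change of 0.29 ± 0.19 did not pass (edgeR adjusted p = 0.25), with a fold interval of 0.909 to 1.64.

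Dnajb9, also called ERdj4, is a J-domain co-chaperone of BiP that helps to restrain IRE1 and to hand misfolded proteins to degradation. It stood at 33.1, 29.1, 18.1 and 30.2 CPM in grafts and at 35.0, 55.4, 55.1 and 61.4 CPM in controls. All grafts lay below all controls, but graft 1 and control 1 were close. The log2 fold change of Dnajb9 was -0.90, with an SE of 0.23 (edgeR adjusted p = 0.0103), and a fold interval of 0.378 to 0.76. A long noncoding RNA gene overlaps Dnajb9 in the RefSeq gene table, and strand use in counting is not given. With controls 3 and 4 left out, the log2 fold change was -0.70 and did not pass (edgeR adjusted p = 0.0961). Manf, a small ER protein that is secreted under stress and binds BiP, had 30.1, 30.4, 25.0 and 29.1 CPM in grafts and 24.2, 29.0, 24.3 and 25.6 CPM in controls. The groups overlapped, and the log2 fold change of 0.15 ± 0.13 did not pass (edgeR adjusted p = 0.355).

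Pdia6 and Pdia4 are protein disulfide isomerases, which form and shuffle the disulfide bonds of new proteins. Pdia6 had 242, 239.9, 179.9 and 256 CPM in grafts and 138, 133, 143 and 155 CPM in controls. Every graft exceeded every control, and Pdia6 rose by 0.69 ± 0.13 (SE; edgeR adjusted p = 0.00258), with a fold interval of 1.32 to 1.98. It passed under each of the 16 alternative settings (edgeR, DESeq2 or limma adjusted p from 3.09e-05 to 0.0176). Pdia4 had 197, 166, 123 and 202 CPM in grafts and 100.2, 129.9, 108 and 129 CPM in controls. Graft 3 lay among the controls and the other grafts above them. Pdia4 rose by 0.56 ± 0.17 (edgeR adjusted p = 0.0257), a call that was lost without graft 1 (0.0674), without graft 4 (0.0706), without control 3 (0.068) and with controls 3 and 4 left out (0.101). The 95% interval of its fold was 1.13 to 1.92. The RefSeq gene table lists 2 genes named as a copy of Hsp90b1, 1 of Pdia4 and 1 of Pdia6, each either a pseudogene or a gene-like copy by its name. How reads that fit a copy were counted is not given in the sources used here.

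Creld2 is an ER-resident protein with disulfide isomerase activity that is released during ER stress. It was rare, at 12.5, 10.9, 12.6 and 13.8 CPM in grafts and 9.44, 8.76, 7.36 and 6.53 CPM in controls, from 145 to 215 counts in a graft and 35 to 126 counts in a control. All grafts exceeded all controls. Creld2 rose by 0.63 ± 0.18 (SE; edgeR adjusted p = 0.0188), with a fold interval of 1.17 to 2.04, but not past the threshold without graft 4 (0.0556) or with controls 3 and 4 left out (0.114). The gene overlaps Alg12, a sugar-adding enzyme of the ER, in the RefSeq gene table, and strand use in counting is not given. Reads from the overlap cannot be assigned here.

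None of the transcription factors passed the test, and the graft and control values of each overlapped. Xbp1 had 120.1, 125, 115 and 117 CPM in grafts and 118, 106, 119 and 125 CPM in controls, with a coefficient of variation of 3.71% in grafts and 6.64% in controls. Control 2 was the lowest library and the others lay close together, with a log2 fold change of 0.03 (SE 0.10, adjusted p = 0.838 by edgeR) and a fold interval of 0.877 to 1.19. Without control 2 the value was -0.01. Atf4, the factor favoured by PERK, had 131, 125, 119.7 and 109.9 CPM in grafts and 133, 109, 107 and 102 CPM in controls. Control 1 was the highest of all 8 libraries, and the log2 fold change of 0.11 ± 0.12 did not pass (edgeR adjusted p = 0.491). Ddit3 had 11.7, 9.92, 8.56 and 10.4 CPM in grafts and 9.59, 9.86, 12.8 and 13.4 CPM in controls. Only controls 3 and 4 stood above every graft. Its log2 fold change of -0.17 ± 0.19 did not pass (edgeR adjusted p = 0.501), and the fold interval ran from 0.667 to 1.19. With controls 3 and 4 left out the log2 fold change was 0.06, and with library totals alone it was 0.05, so its direction depended on these choices. Ddit3 overlaps Mars1, a tRNA synthetase gene, in the RefSeq gene table, so the same limit of strand holds.

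A ratio of 2 genes in 1 library does not depend on how libraries are scaled. The log2 ratio of Ddit3 to Hspa5 counts averaged -4.91 ± 0.27 in grafts and -4.66 ± 0.23 in controls (SD, n = 4 each). The log2 ratio of Atf4 to Hspa5 counts averaged -1.32 ± 0.43 in grafts and -1.35 ± 0.34 in controls. For both ratios the groups overlapped, and no test was made. The difference of the means for Ddit3, -0.25, was smaller than the SD of the grafts and larger than that of the controls. For Atf4 the difference, 0.03, was smaller than the SD of either group. Read as shares of all counts, without scaling factors, the 10 genes together took 0.186%, 0.184%, 0.155% and 0.211% in grafts 1 to 4 and 0.115%, 0.134%, 0.141% and 0.138% in controls 1 to 4. These shares did not overlap, while the summed CPM on the TMM scale did, at 1302 to 1979 CPM in grafts and 1228 to 1539 CPM in controls. With library totals alone 5 of the 10 rose, Hsp90b1 (0.50, edgeR adjusted p = 0.0359) and Manf (0.38, 0.0294) being added. Of all 15464 tested genes 4558 then rose, against 3250 on the TMM scale, and the median of all genes moved to 0.23.

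**Figure D2:**
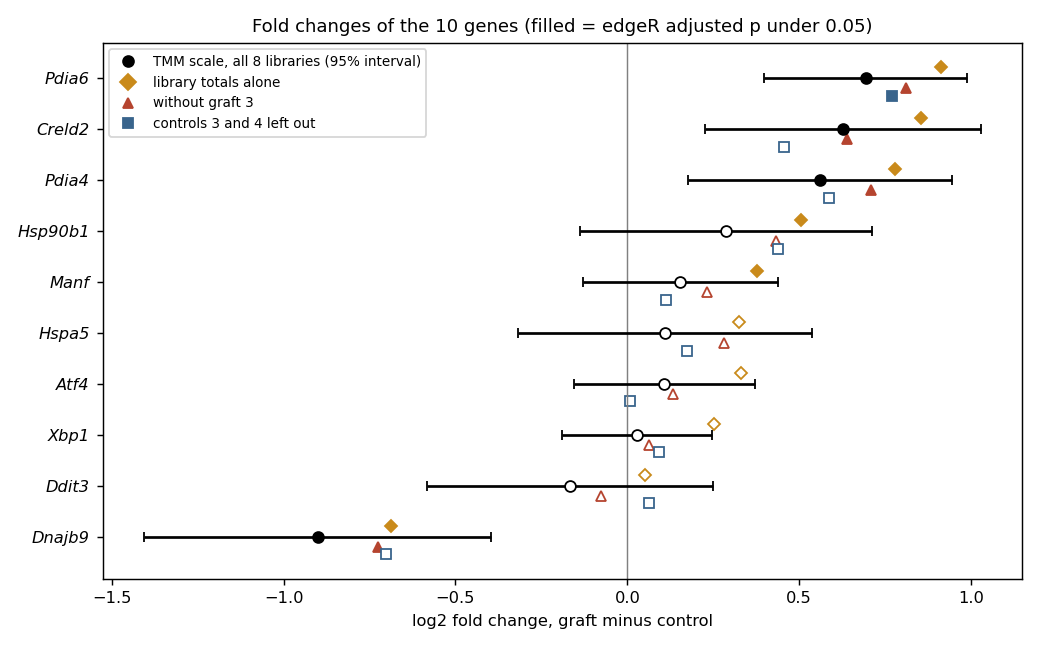
Log2 fold change, graft minus control, of the 10 genes: circles with 95% intervals are the TMM-scaled fit on all 8 libraries, and the other symbols are the value with library totals alone, without graft 3, and with controls 3 and 4 left out; filled symbols passed an edgeR adjusted p of 0.05. Pdia6 at 0.69 is filled under all 4 settings, Pdia4, Creld2 and Dnajb9 are open with controls 3 and 4 left out, and Hsp90b1 and Manf are filled with library totals alone.

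Within the groups single libraries stood low for many of the genes. Graft 3 was the lowest graft for 8 of the 10 genes, with a median deviation of -0.28 (log2) from the graft mean, and graft 4 was the highest for 5. Control 1 was the lowest control for 6 of the 10. Graft 3 also had the lowest sums of smooth muscle and fibroblast markers among grafts, at 2156 and 19567 CPM. The same held for adipocyte markers (337 CPM), plasma and B cell markers (137 CPM) and each list of related genes. Its sums of macrophage and endothelial markers were not the lowest. The part of these markers in the low values of graft 3 was not tested. Without graft 3, Hspa5 stood at 0.28 and Hsp90b1 at 0.43 and neither passed (edgeR adjusted p = 0.145 and 0.067), while Pdia4, Pdia6, Creld2 and Dnajb9 passed again. By the root mean square difference of log2 CPM over the 8 libraries, each gene centred on its own mean, the 5 genes closest to Hspa5 among 9771 candidates at 10 CPM or more were Emp1 (0.06), Asah1 (0.08), Spcs3 (0.09), Ccl21 (0.10) and Kdelc2 (0.10). Hsp90b1 came at rank 16 (0.13) and Manf at rank 186 (0.20). Pdia4, Ddit3, Xbp1, Atf4 and Pdia6 came at ranks 594, 603, 942, 2484 and 2554. Creld2 came at rank 4938 (0.43) and Dnajb9 at rank 6312 (0.52). This distance includes the difference between the groups, so a gene whose fold change differs from that of Hspa5 stands farther from it.

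Promoters were read because ATF6 and XBP1 are known to act through the ER stress element, which is CCAAT, then 9 bases, then CCACG. RefSeq windows of assembly GRCr8, from 250 bases before to 50 after the gene start, were held for 8 of the 10 genes and not for Pdia6 and Manf. Both boxes at this spacing, on either strand, occurred in 4 of these 8 windows, those of Hspa5, Hsp90b1, Creld2 and Xbp1, and in 22 of all 33469 windows (0.0657%). A match is a description of letters and not a shown binding site. The second motif of this kind (ATTGG, 1 base, CCACG), which shares its last box with the first, was in 0.0508% of windows, the XBP1-preferred TGACGTGG in 0.595% and the ATF4-type TGATGNAA in 3.98%, and no window of the 8 held any of these. The 4 windows with the element are shown, with that of Dnajb9 for contrast as the gene that fell. Each is 5′ to 3′ on the gene's strand, in GRCr8 coordinates, which differ from those of the Rnor_6.0 build used for alignment, and capitals mark the boxes of the element where both are at its spacing, which leaves Dnajb9 with none.
Hspa5, chr3:38452766-38453065, plus strand: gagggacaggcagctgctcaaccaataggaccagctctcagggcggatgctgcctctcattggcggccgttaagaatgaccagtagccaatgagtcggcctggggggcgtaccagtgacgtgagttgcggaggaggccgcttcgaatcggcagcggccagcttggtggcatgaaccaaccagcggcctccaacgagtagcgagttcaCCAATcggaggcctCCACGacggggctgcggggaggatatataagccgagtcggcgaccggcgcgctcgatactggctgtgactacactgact
Hsp90b1, chr7:23012244-23012543, minus strand: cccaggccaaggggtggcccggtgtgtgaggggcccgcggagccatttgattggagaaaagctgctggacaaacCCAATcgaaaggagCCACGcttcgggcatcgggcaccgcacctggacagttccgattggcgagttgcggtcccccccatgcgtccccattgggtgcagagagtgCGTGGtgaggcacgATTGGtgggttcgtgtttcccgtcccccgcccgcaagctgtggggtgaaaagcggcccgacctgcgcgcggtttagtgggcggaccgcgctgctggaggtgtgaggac
Creld2, chr7:121789134-121789433, plus strand: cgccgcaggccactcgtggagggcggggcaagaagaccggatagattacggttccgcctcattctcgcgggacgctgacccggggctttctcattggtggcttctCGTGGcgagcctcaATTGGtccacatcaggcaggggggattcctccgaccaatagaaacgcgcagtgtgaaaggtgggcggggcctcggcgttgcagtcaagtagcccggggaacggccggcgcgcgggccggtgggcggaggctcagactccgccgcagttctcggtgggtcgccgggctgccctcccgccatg
Xbp1, chr14:84604373-84604672, plus strand: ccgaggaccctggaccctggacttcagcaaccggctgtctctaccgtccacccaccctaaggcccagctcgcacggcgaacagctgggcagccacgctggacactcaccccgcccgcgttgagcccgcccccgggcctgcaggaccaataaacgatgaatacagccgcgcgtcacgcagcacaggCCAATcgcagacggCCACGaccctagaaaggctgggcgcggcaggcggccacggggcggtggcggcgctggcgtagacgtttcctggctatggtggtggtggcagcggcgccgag
Dnajb9, chr6:67002002-67002301, minus strand: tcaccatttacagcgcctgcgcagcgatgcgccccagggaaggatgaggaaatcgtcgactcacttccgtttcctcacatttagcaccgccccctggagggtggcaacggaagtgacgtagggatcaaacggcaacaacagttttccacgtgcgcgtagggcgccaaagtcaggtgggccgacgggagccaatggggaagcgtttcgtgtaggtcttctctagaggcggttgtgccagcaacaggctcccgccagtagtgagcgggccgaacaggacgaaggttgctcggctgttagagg

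The element lay at -43 to -25 in Hspa5, at -176 to -158 and -72 to -54 in Hsp90b1, at -145 to -127 in Creld2 and at -65 to -47 in Xbp1, counted in bases from the gene start. In Creld2 and at the second place in Hsp90b1 it lies on the opposite strand, and so reads CGTGG, 9 bases, ATTGG. Of these 4 genes Creld2 rose and the other 3 did not pass, while Pdia4 rose with no match at this spacing in its window. A missing match says only that these letters are not in the window. Dnajb9, which fell, had each box once, at -105 to -101 and -62 to -58, in the other order.

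**Figure D3:**
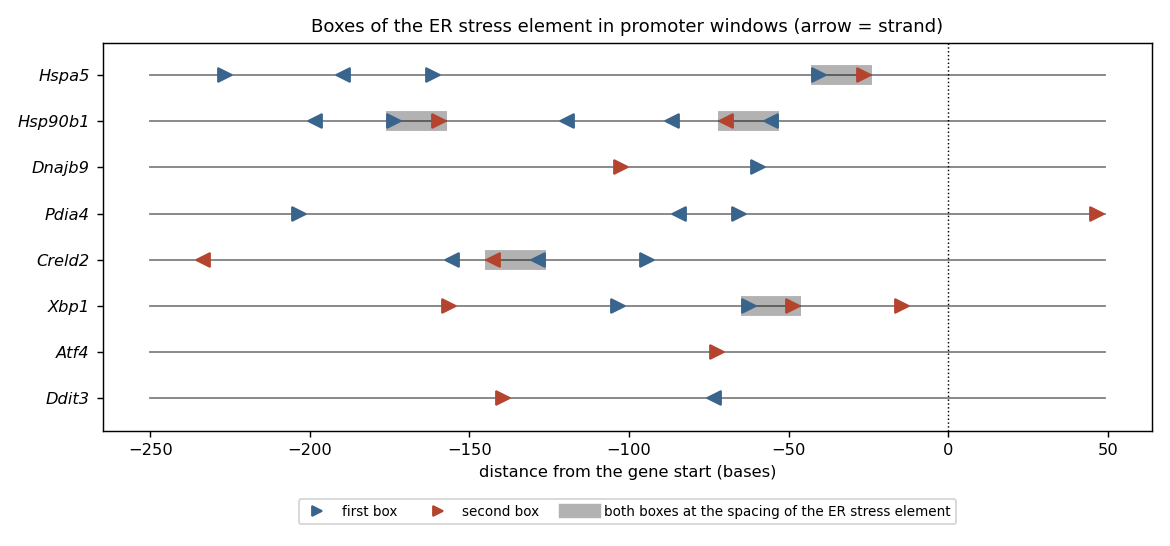
Positions of the boxes of the ER stress element in the RefSeq promoter windows of 8 genes, as distance from the gene start in bases. Blue is the first box, red the second, arrows give the strand and grey boxes mark both boxes at the spacing of the element. Hspa5, Creld2 and Xbp1 have 1 grey box and Hsp90b1 has 2.

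Of 9 tested sensors and related membrane transcription factors 2 rose, a share near the 21.0% of all genes that rose. These were Ern1, the gene of IRE1, at 57.5 ± 5.9 CPM in grafts and 42.5 ± 2.83 CPM in controls (SD, n = 4 each; 0.43 ± 0.11 SE, edgeR adjusted p = 0.0133), and Atf6b, a relative of ATF6 (0.71 ± 0.23, edgeR adjusted p = 0.0299). None fell by edgeR (0, also at an unadjusted p under 0.05, and 0 by DESeq2 and limma voom after adjustment). Eif2ak3, the gene of PERK, stood at -0.24 (edgeR adjusted p = 0.112) and Atf6 at 0.02 (0.884), both named after their values were seen. Only 1 rose without graft 1, 2 or 3 or without control 2, 3 or 4, and 1 fell without graft 2. Atf6b lost its call in each of those 6 fits in which 1 gene rose. With controls 3 and 4 left out, neither Ern1 (edgeR adjusted p = 0.0919) nor Atf6b (0.39, 0.17) passed. The groups overlapped for Atf6b, with control 1 at 51.9 CPM and graft 4 at 50.7 CPM. Creb3l3, a liver factor, had no counts.

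Of 27 tested other chaperones and folding enzymes of the ER, 7 rose and 4 fell, against 21.0% and 21.3% of all genes, with a median of 0.31. In sum 11 of 27 were called, near the 42.3% of all genes. Cnpy3, a co-factor of GRP94, rose to 50.3 ± 2.36 CPM in grafts, against 24.3 ± 1.08 CPM in controls (1.05 ± 0.11, edgeR adjusted p = 8.15e-05). Uggt1, which checks the fold of glycoproteins, rose by 0.71 ± 0.10 (edgeR adjusted p = 0.000506). Ero1lb, an oxidase that recharges disulfide isomerases, fell by 0.95 ± 0.23 (edgeR adjusted p = 0.0094), and Prdx4, a peroxiredoxin of the ER, by 0.79 ± 0.21 (0.0133). Among genes named after their values were seen, P4hb, the classic disulfide isomerase and a subunit of collagen prolyl hydroxylase, rose by 0.75 ± 0.15 (edgeR adjusted p = 0.00323). Calr, Hyou1 and Sdf2l1, the last a partner of BiP, rose by 0.49, 0.39 and 2.20. Sdf2l1 was rare, at 12.6 ± 4.24 CPM in grafts and 2.76 ± 0.825 CPM in controls (SD). Fkbp7 and Fkbp14 fell (-0.75 and -0.53, edgeR adjusted p = 0.0231 and 0.0388). The lectin chaperone Canx stood at -0.40 and Pdia3 at 0.36, and neither passed. The rises numbered 11 without graft 3 or control 1 and 17 with library totals alone, where 4558 of all 15464 tested genes rose. The falls numbered 2 without graft 3 or control 2, 3 or 4, and Ero1lb did not pass with controls 3 and 4 left out (-0.78, edgeR adjusted p = 0.0747).

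Genes of ER-associated degradation, which returns misfolded proteins to the cytosol, gave 5 rises and 4 falls of 19 tested, near the 21.0% and 21.3% of all genes, with a median of 0.06. Edem2 and Edem1, which trim the sugars of misfolded glycoproteins, rose by 1.45 ± 0.21 (SE; edgeR adjusted p = 0.000553) and 0.63 ± 0.10 (0.00113). Herpud1, a scaffold of the degradation complex that is known as a target of ATF6, XBP1 and ATF4, fell to 55.5 ± 4.43 CPM in grafts, against 96.8 ± 10.6 CPM in controls (-0.80 ± 0.12, edgeR adjusted p = 0.000576). Erlec1, a lectin of the same path, fell by 0.56 ± 0.18 (edgeR adjusted p = 0.0312), a call lost without graft 2, 3 or 4 or control 2, 3 or 4 (0.0659 to 0.0808), with library totals alone (-0.34, 0.11) and with controls 3 and 4 left out (-0.40, 0.215). The rises numbered 3 without graft 1, 2 or 4 or without control 3 or 4. The falls numbered 2 without graft 1 or 4 and 1 without graft 2 or 3 or control 2, 3 or 4.

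Genes known to follow PERK, ATF4 and CHOP gave 8 rises and 4 falls of 27 tested, against 21.0% and 21.3% of all genes, with a median of 0.09. The 12 of 27 called were near the 42.3% of all genes. Slc7a11, the cystine importer, stood at 101 ± 64.1 CPM in grafts and 1.89 ± 1.43 CPM in controls (5.75 ± 0.67 SE, edgeR adjusted p = 0.000184). Slc7a5, which carries large neutral amino acids, rose by 1.44 ± 0.20 (edgeR adjusted p = 0.000473). Atf5, a factor related to ATF4, fell to 57.6 ± 5.77 CPM in grafts, against 229 ± 34.4 CPM in controls (-1.99 ± 0.14, edgeR adjusted p = 2.16e-05). Phgdh, the first enzyme of serine synthesis, fell by 2.34 ± 0.41 (edgeR adjusted p = 0.00175), with control levels as uneven as 35.8 ± 23.5 CPM. It stood at 23.1, 16.2, 34.8 and 69.1 CPM in controls 1 to 4. Adipocyte markers were also higher in controls 3 and 4, and their part was not tested. Under the 16 alternative settings the log2 fold change of Phgdh ran from -2.57 to -1.48. Of targets named after their values were seen, Chac1, a glutathione-degrading enzyme, was rare at 1.82 ± 0.542 CPM in grafts and 0.275 ± 0.207 CPM in controls (2.53 ± 0.54, edgeR adjusted p = 0.00449), while Atf3 at 0.21, Ppp1r15a at 0.09 and Asns at -1.03 did not pass.

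Translocon, signal peptidase and oligosaccharyltransferase genes, which bring new chains into the ER, gave 5 rises and 3 falls of 29 tested, against 21.0% and 21.3% of all genes, with a median of -0.03. Sec61a1, the channel itself, rose by 0.62 ± 0.13 (SE; edgeR adjusted p = 0.00448) and Dad1, a glycosylation subunit, by 0.65 ± 0.16 (0.00878). Sec62 and Sec63, the accessory proteins of the channel, fell by 0.75 ± 0.23 (edgeR adjusted p = 0.0257) and 0.53 ± 0.17 (0.0294). Both lost the call without graft 3 or control 2, 3 or 4, and Sec63 also without graft 1. With library totals alone Sec62 stood at -0.53 and Sec63 at -0.31, and neither passed (edgeR adjusted p = 0.0572 and 0.118). With controls 3 and 4 left out none of these 4 genes passed (edgeR adjusted p from 0.0517 to 0.206). The rises numbered 10 without control 1 and 3 without control 2 or 3, and the falls 5 without control 1, 1 without graft 1 or control 3, and 0 without graft 3, control 2 or control 4 (edgeR, with 4, 3 and 2 at an unadjusted p under 0.05). Of 27 genes of ER to Golgi transport, 2 rose and 2 fell, against the same shares of all genes, with a median of -0.06. Tmed10 and Tmed9, cargo receptors, rose by 0.54 ± 0.12 and 0.72 ± 0.18 (edgeR adjusted p = 0.00485 and 0.00897), and Sar1a and Mia3, which build the coats and exits for collagen, fell by 0.59 ± 0.13 and 0.46 ± 0.15 (0.00521 and 0.0297). Mia3 lost its call without graft 2, 3 or 4 or control 2, 3 or 4 (0.0559 to 0.0875), with library totals alone (-0.24, 0.15), with no low-count filter (0.0521) and with controls 3 and 4 left out (-0.38, 0.175). Tmed9 did not pass with controls 3 and 4 left out (0.0795). Here 6 rose without control 1, and 1 fell without graft 2, 3 or 4 or control 2, 3 or 4.

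**Figure D4:**
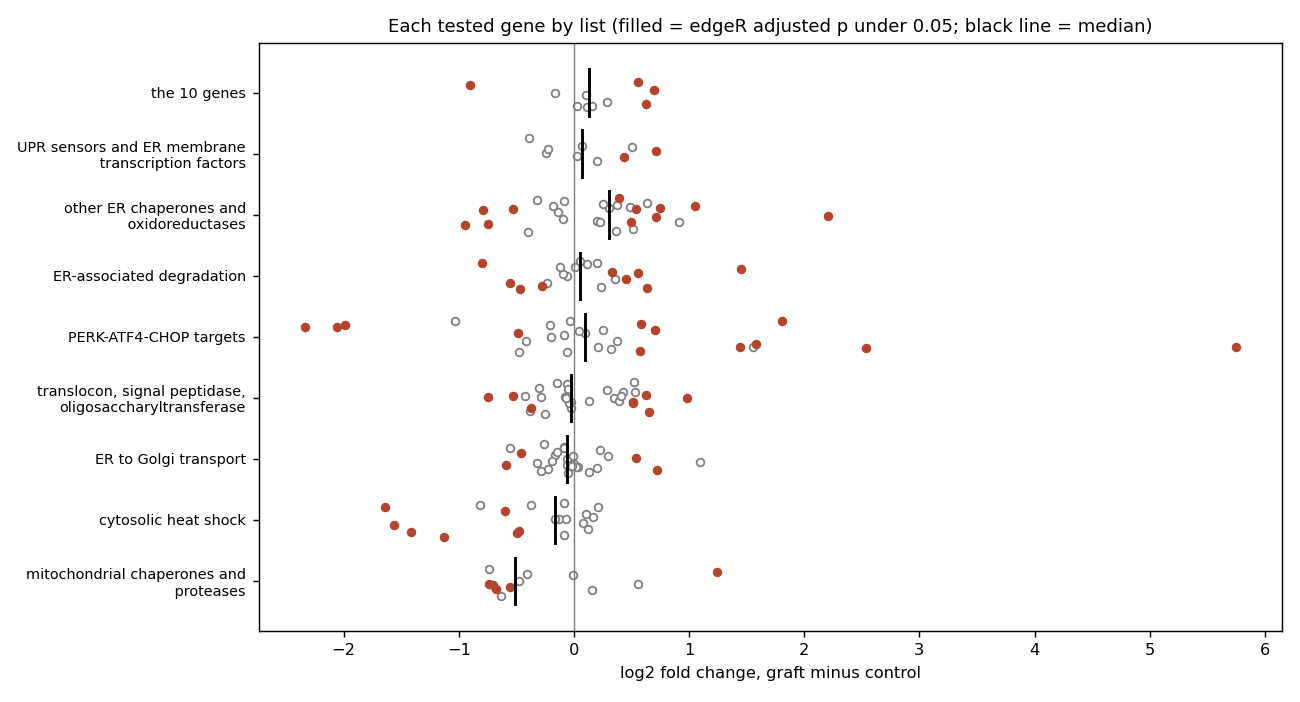
Log2 fold change, graft minus control, of every tested gene in the 10-gene set and in 8 lists of related genes (1 row each). Filled points passed an edgeR adjusted p of 0.05, open points did not, and black lines are medians. The median of the 10 genes is 0.13 and that of the chaperone list 0.31, and the widest spread is that of the PERK, ATF4 and CHOP targets, with Slc7a11 at 5.75.

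Plasma cells, which are rich in this machinery, were looked for by their markers. Of 7 tested plasma and B cell markers Igj and Prdm1 rose, Igj standing at 30.8 ± 18.6 CPM in grafts and 3.09 ± 2.17 CPM in controls (SD, n = 4 each). The list had sums of 137 to 224 CPM in grafts and 140.4 to 315 CPM in controls. Cd79a had no counts in any library. The part of these cells in the values above was not tested.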

How the data were processed

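RNA of 4 graft and 4 control veins was, per the submitters' processing notes, aligned to the genome build Rnor_6.0 with HISAT2 2.0.4. The deposited table holds the authors' whole-number counts per gene. The counter, annotation, strand setting and handling of reads with several matches were not given in the sources used here. From these counts, genes were kept by edgeR's filterByExpr (minimum count 10), which left 15464 of 37209 rows, scaled by TMM and tested with edgeR's quasi-likelihood test, graft minus control without pairing, with Benjamini-Hochberg adjustment over all tested genes. CPM and fold changes derive from that fit, with a prior count of 2 for log2 CPM. R 4.3.3, edgeR 4.0.16, DESeq2 1.42.0 and limma 3.58.1 were used, and the fit was tested on simulated data. Every pair of replicates differed beyond sampling noise. The members and gene lists were chosen with earlier results of these data known. Of each list the text names the 2 called genes with the smallest p in each direction, and others as chosen after their values were seen. Alternatives were library totals, RLE and upper-quartile factors, no filter, DESeq2, limma voom, a replicate block, each library left out, and controls 3 and 4 left out.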

Additional observations from a re-analysis of the deposited data

Results flagged for a closer look

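Among 74 groups of 4 libraries checked, 5 had 1 library far from the other 3, by a gap above Dixon's 95% critical value, which chance gives in about 1 of 20 groups. Hsp90b1 in control 1 was at 423 CPM, with the other controls at 589 to 614 CPM. Sec63 in control 1 was at 178 CPM, with the other controls at 243 to 254 CPM. Sec62 in graft 3 was at 86.0 CPM, with the other grafts at 142 to 148 CPM. Dnajb4, a cytosolic co-chaperone, was at 37.0 CPM in graft 3, with the other grafts at 58.2 to 62.3 CPM, and at 193 CPM in control 4, with the other controls at 129 to 135 CPM.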

How the results depend on the processing

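Of 160 values of the 10 genes under 16 alternatives, 146 kept their direction and side of the threshold, 8 were no longer past it, 2 newly passed and 4 changed sign. The signs that changed were those of Ddit3 (0.051 with library totals alone, 0.064 with controls 3 and 4 left out), Hspa5 (-0.014 without graft 4) and Xbp1 (-0.0068 without control 2). With 1 library left out at a time, Hspa5 reached 0.28 and Xbp1 0.068 at most, and with library totals alone they stood at 0.32 and 0.25. Leaving out libraries also lowers the number of samples, and the cause of each other change was not tested. Depth limits Creld2 and Ddit3 most.

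With library totals alone, 4558 of all 15464 tested genes rose in place of 3250, and 2164 fell in place of 3288. The median of all genes was 0.23. The rises were then 5 of the 10 genes, 4 sensors, 17 chaperones, 8 degradation, 12 translocon, 6 Golgi transport and 2 mitochondrial genes. The falls were 2 chaperones, 1 degradation, 0 translocon (1 at an unadjusted p under 0.05), 1 Golgi transport, 4 heat shock and 1 mitochondrial gene. Upper-quartile factors gave 2 falls in degradation and 2 mitochondrial rises, limma voom 2 mitochondrial rises, and no low-count filter 2 falls in degradation and 1 in Golgi transport. Of all 15464 tested genes, upper-quartile factors gave 3534 rises and 2958 falls, and limma voom 3306 rises. Without the filter 3176 of 24983 genes fell.

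With controls 3 and 4 left out, 1 of the 10 genes rose and 0 fell (edgeR, 1 at an unadjusted p under 0.05). Of all 16445 genes tested in that fit, 2525 rose and 2253 fell, against 3250 and 3288 of 15464 with all libraries. The rises were 0 sensors (1 unadjusted), 3 degradation, 0 translocon (3 unadjusted) and 1 Golgi transport gene. The falls were 1 chaperone, 1 degradation, 0 translocon (1 unadjusted), 1 Golgi transport, 4 heat shock and 0 mitochondrial genes (3 unadjusted).

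Same-numbered grafts and controls did not all deviate together from their group means, with correlations of -0.07, 0.18, 0.07 and 0.05. With the replicate number as a block, Creld2 (0.63, edgeR adjusted p = 0.054), Erlec1 (0.0773) and Mia3 (0.0649) did not pass, 2 of the 10 genes rose and 1 fell, and the falls were 1 sensor, 2 chaperones, 1 degradation gene and 1 Golgi transport gene. Of all 15464 tested genes, 3042 then rose and 2860 fell.

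With each library left out in turn, 2845 to 4054 of all tested genes rose and 2742 to 3786 fell. The rises then ranged from 1 to 3 of the 10 genes, 1 to 3 sensors, 6 to 11 chaperones, 3 to 7 degradation, 3 to 10 translocon, 2 to 6 Golgi transport, 0 to 1 heat shock and 1 to 2 mitochondrial genes. The falls ranged from 0 to 1 sensors, 2 to 5 chaperones, 1 to 4 degradation, 0 to 5 translocon, 1 to 3 Golgi transport, 4 to 7 heat shock and 1 to 6 mitochondrial genes.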

Other observations

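Of 19 tested cytosolic heat shock genes 7 fell, against 21.3% of all genes, with a median log2 fold change of -0.16. None rose by edgeR (0, also at an unadjusted p under 0.05, and 0 by DESeq2 and limma voom). Dnajb4 was at 54.8 ± 12.1 CPM in grafts and 147 ± 31.2 CPM in controls (SD, n = 4 each; -1.42 ± 0.20 SE, edgeR adjusted p = 0.000527). Cryab, a small heat shock protein abundant in muscle, was at 14.8 ± 4.89 CPM in grafts and 46.3 ± 9.13 CPM in controls (-1.64 ± 0.25, edgeR adjusted p = 0.000708). All 12 smooth muscle markers fell beside them, and their part was not tested. The falls numbered 4 without graft 1, graft 3 or control 4, and 1 rose without control 1.

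Of 12 mitochondrial chaperones and proteases 1 rose and 4 fell, against 21.0% and 21.3% of all genes, with a median of -0.52. Their summed level was 401 to 500.5 CPM in grafts, 677 and 847 CPM in controls 3 and 4, and 460 and 477 CPM in controls 1 and 2, and the adipocyte markers were higher in the same 2 controls, whose part was not tested. With controls 3 and 4 left out 0 fell (edgeR, 3 at an unadjusted p under 0.05), and with library totals alone 2 rose and 1 fell. Htra2, a protease of the space between the membranes, rose to 31.3 ± 3.85 CPM in grafts, against 13.1 ± 4.70 CPM in controls (1.24 ± 0.24, edgeR adjusted p = 0.0027). Clpx, the unfoldase of a matrix protease, fell by 0.68 ± 0.17 (edgeR adjusted p = 0.00923), but did not pass with controls 3 and 4 left out (-0.39, 0.0989). Grpel1, a co-chaperone of mitochondrial Hsp70, fell by 0.56 ± 0.17 (edgeR adjusted p = 0.023), a call lost without graft 1, 2 or 3 or control 4 (0.0546 to 0.0671), with library totals alone (-0.33, 0.138) and with controls 3 and 4 left out (0.0653). The falls numbered 2 without graft 1, 2 or 4 or control 3 or 4, and 1 without graft 3, and 2 rose without control 4.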
